A study of Mus musculus with 2 samples.

Results

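The Mir29 family in mouse limb at embryonic day 10.5 is described here through its 4 genes, Mir29a, Mir29b-1, Mir29b-2 and Mir29c, of the 1973 miRNA genes in the deposited tables. The rows were taken by Ensembl identifier. They were chosen by name and by their low sense counts in these same libraries, so their levels are given as a description, with no test. The 2 libraries are replicates of a single group of limb tissue from B6NCrl embryos of both sexes, with no genotype, treatment or second stage to compare. Replicate 1 pooled limbs of 69 embryos, and the pool behind replicate 2 came from 51. Whole limb tissue mixes mesenchyme, ectoderm, vessels and blood. A high level in few cells can therefore not be told apart from a low level in all of them.

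miRNAs are short RNAs cut from hairpin precursors, which leave a 5p and a 3p strand. Bases 2 to 8, the seed, pair with target mRNAs and lower their translation and stability. miR-29 is known for repressing the mRNAs of collagens, elastin and other matrix proteins and of the DNA methyltransferases Dnmt3a and Dnmt3b. Its level is known to rise as many cell types mature, and Myc is known to repress its transcription in dividing cells. The genes lie in a pair of clusters, each with one Mir29b copy.

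The mature strands show which reads can be told apart. Below are the sequences of the 4 hairpins, from RefSeq on GRCm38.p6, 5′ to 3′, with the seed in capitals:
mmu-miR-29a-3p: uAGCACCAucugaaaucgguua
mmu-miR-29c-3p: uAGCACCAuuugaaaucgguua
mmu-miR-29b-3p: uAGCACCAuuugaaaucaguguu
mmu-miR-29a-5p: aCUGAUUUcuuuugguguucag
mmu-miR-29c-5p: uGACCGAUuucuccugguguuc
mmu-miR-29b-1-5p: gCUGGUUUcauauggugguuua
mmu-miR-29b-2-5p: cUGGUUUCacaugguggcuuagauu

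The 3p strands have the seed AGCACCA in common, and no other name among the 1738 mature entries of the table has it. Counted from 1 at the 5′ end, miR-29a-3p differs from miR-29c-3p by C10U alone. From miR-29c-3p to miR-29b-3p the changes are G18A, U21G and A22U, so these strands are alike over their first 17 bases. The 5p strands have other seeds, and each of the 4 occurs in a single hairpin of the table. miR-29b-3p is encoded by both Mir29b-1 and Mir29b-2, and the longest stretch common to these hairpins, ucuagcaccauuugaaaucaguguu, has 25 bases, against 23 for the mature strand. A complete miR-29b-3p read therefore matches both loci, while a miR-29b-1-5p or miR-29b-2-5p read matches its own hairpin.

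Coordinates are on GRCm38 (mm10), from GENCODE M21. Mir29a (ENSMUSG00000065610.1, chr6:31062660-31062747, minus strand) overlaps no other annotated gene. Mir29b-1 (ENSMUSG00000065604.1, chr6:31063023-31063093, minus strand) lies 275 bases from it and overlaps the end of the lincRNA gene Gm27019 by 2 bases. On chromosome 1, Mir29b-2 (ENSMUSG00000065412.2, chr1:195037040-195037120, plus strand) and Mir29c (ENSMUSG00000065548.1, chr1:195037547-195037634, plus strand) are 426 bases apart. Both lie wholly in an annotated exon of the noncoding gene A330023F24Rik, and on the opposite strand in an exon of Cd46, which encodes a complement regulator. The antisense count was 0 at all 4 loci in both libraries. The tables carry older versions of the Mir29b identifiers than GENCODE M21 does (version 1 against 2 for Mir29b-1, and 2 against 3 for Mir29b-2), while those of Mir29a and Mir29c are the same. The stretch over which Mir29b reads were counted may therefore differ from the one given here.

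Sense counts in miRNA genes came to 3581672 in replicate 1 and 3576482 in replicate 2, and CPM is the count per 1000000 of these. A single count was worth 0.279 CPM in replicate 1 and 0.280 CPM in replicate 2. By the one-sided limit of 3 counts, a count of 0 allows up to 0.838 and 0.839 CPM. The two-sided exact interval used for the genes reaches further, to 1.03 CPM for the 0 counts of Mir29b-1 in replicate 1. Intervals are 95% and exact, and like these limits cover counting error only, since PCR copies are not independent molecules. Replicate 1 had more unmapped reads, 32.3% against 18.6%. Reads matching several loci made up 32.3% and 31.2% of the mapped reads. The tables give them in a row of their own, from which it was inferred that none was counted at a gene. Of the mesenchyme markers, Mir10b had 69833 ± 19514 CPM, Mir196b 63953 ± 14163, Mir214 18552 ± 2773 and Mir199b 1528 ± 498 (SD, n = 2). For epithelium, Mir205 had 4810 ± 316 CPM and Mir200c 1399 ± 564. For blood cells, Mir451a had 326 ± 136 CPM, Mir144 25.8 ± 3.33, Mir223 179.5 ± 30.0 and Mir155 490 ± 53.8. Of 3 neural markers, 2 had a row. Mir137 had 283 and 440 counts, and Mir124a-1, itself a gene of several copies, had no count.

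Mir29c and Mir29a were detected, and the Mir29b genes had almost no counts. Mir29c had 144 counts in replicate 1 and 130 in replicate 2, which is 40.2 CPM (33.9 to 47.3) and 36.3 CPM (30.4 to 43.2). Mir29a had 42 and 40 counts, or 11.7 CPM (8.45 to 15.9) and 11.2 CPM (7.99 to 15.2). The libraries overlapped in their intervals for each gene, and the intervals of Mir29c lay wholly above those of Mir29a. Means were 38.3 ± 2.73 CPM for Mir29c and 11.5 ± 0.383 CPM for Mir29a (SD, n = 2).

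Mir29b-2, the cluster partner of Mir29c, had 4 counts in replicate 1 and 1 count in replicate 2, which is 1.12 CPM (0.304 to 2.86) and 0.280 CPM (0.00708 to 1.56). Mir29b-1, the partner of Mir29a, had 0 counts and 1 count, for a mean of 0.140 ± 0.198 CPM. The intervals of the Mir29b genes overlapped, so their order was not settled. These few counts take in the 5p strand of each gene, which is unique to its hairpin. An exact Poisson interval on the 1 count of Mir29b-1 in replicate 2 reaches up to 5.57 counts.

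**Figure D1:**
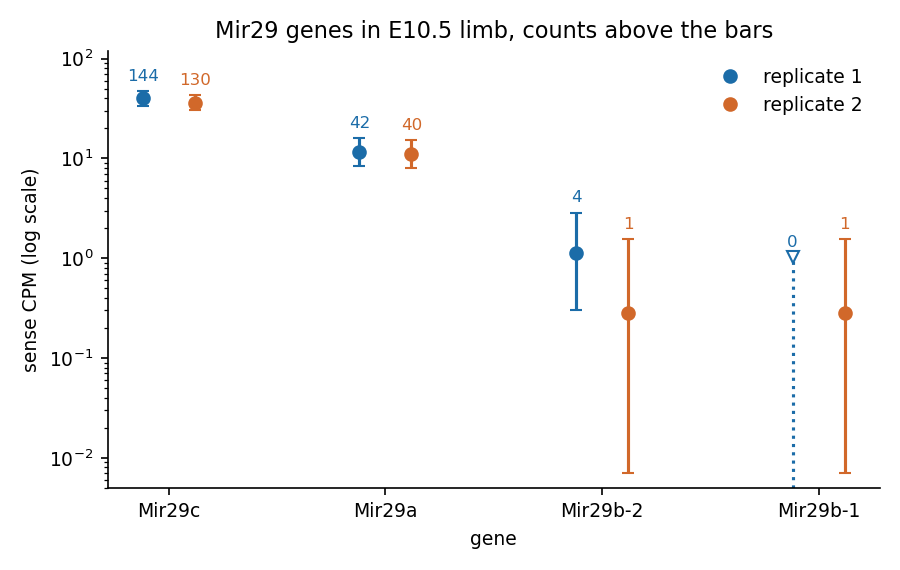
Sense CPM (log axis) of the 4 Mir29 genes by gene and replicate. Points are the libraries, bars 95% exact binomial intervals and numbers the read counts. The open triangle marks the upper end of that interval for 0 counts, 1.03 CPM. Mir29c lies at 40.2 and 36.3 CPM, Mir29a at 11.7 and 11.2 CPM, and no Mir29b gene exceeds 4 counts.

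With at least 10 counts in both libraries as the rule for detection, 2 of 4 Mir29 genes were detected, against 17.6% of all 1973 genes. Since the family was chosen for its level, nothing is read from that share. The 4 genes together had 190 and 172 counts, 50.6 ± 3.50 CPM, or 0.00506% of the counts in genes. Mir335, the most abundant gene of the tables, had 176336 ± 14589 CPM, 3487-fold the family total. Hairpin counts were not divided by length, because a small-RNA read covers a whole mature strand and not a part of a long transcript.

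Mir29c ranked 235th of 1973 genes by mean CPM (235th in replicate 1 and 229th in replicate 2), and Mir29a ranked 291st (296th and 283rd). Low here means low among the genes in use: 88.1% of all genes lay below Mir29c and 85.3% below Mir29a, but 64.4% of all genes had no count in either library. Of the 348 detected genes, 32.5% lay below Mir29c and 16.4% below Mir29a, and the median detected gene had 136 CPM. Mir29b-2 shared its mean of 0.698 CPM with other genes at rank 506, and Mir29b-1 was 627th. Ranks next to each other were not separated. Mir582, one place above Mir29c, had 136 and 138 counts, and Mir1955, one place below, had 159 and 109.

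**Figure D2:**
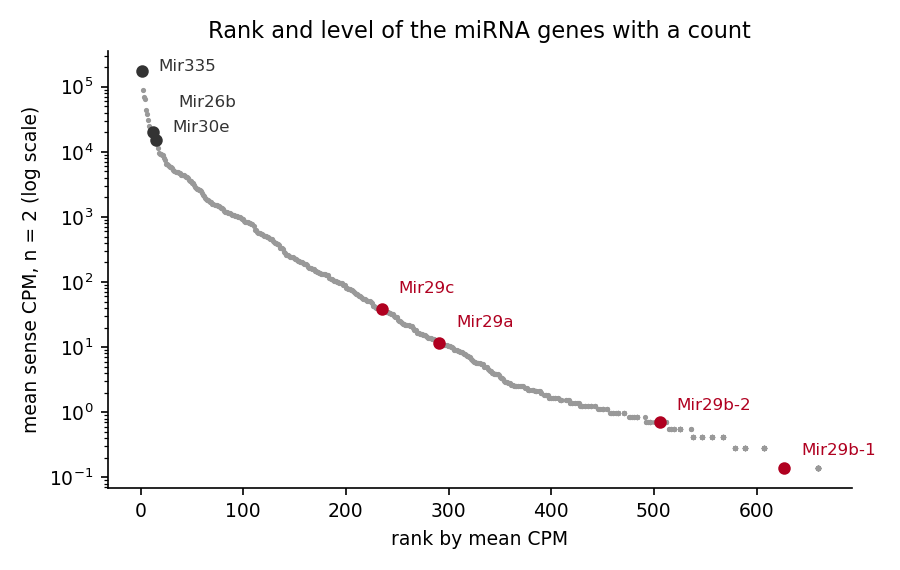
Mean sense CPM (log axis, n = 2) against rank for the miRNA genes with a count; red points are the Mir29 genes and black points are 3 abundant genes for scale. Mir29c at rank 235 and Mir29a at rank 291 lie on the lower slope, and Mir29b-2 and Mir29b-1 lie among genes of a few reads.

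The genes most like the detected members in level, by the summed absolute difference in log2 CPM over the 2 libraries, were for neither gene on its own chromosome. For Mir29c these were Mir194-2 (143 and 145 counts, summed difference 0.17), Mir582 (0.17) and Mir672 (151 and 114 counts, 0.26). For Mir29a they were Mir488 (39 and 40 counts, 0.10), Mir450-2 (39 and 38 counts, 0.18) and Mir3064 (40 and 36 counts, 0.22). Likeness over 2 libraries reflects level more than any pattern.

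Between the single-locus genes, Mir29c exceeded Mir29a by 3.43-fold (2.42 to 4.96) in replicate 1 and by 3.25-fold (2.26 to 4.76) in replicate 2. The excess was of like size in both libraries, with a log2 ratio of 1.71 ± 0.05 (SD, n = 2, prior count of 1). Gene counts do not separate 5p from 3p reads, so this is a ratio of genes. It gives no ratio of the mature 3p strands, which differ by 1 base. Whether library preparation captured the strands of both genes equally was not measured. With 2 libraries the smallest two-sided exact sign-flip p is 0.5, so no test across libraries was made of this or any ratio below.

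Against the summed Mir29b genes, Mir29a had 42 counts to 4 in replicate 1, 10.5-fold (3.81 to 40.3), and 40 counts to 2 in replicate 2, 20-fold (5.19 to 171). Mir29c had 36.0 times the Mir29b counts (13.8 to 134) in replicate 1 and 65.0 times (17.6 to 542) in replicate 2. The log2 ratios were 3.44 ± 0.47 for Mir29a and 5.15 ± 0.42 for Mir29c, with wide intervals because the Mir29b counts were so few. Every interval lay above 1 in both libraries.

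The same gap was seen inside each cluster. Mir29a had 42 counts and Mir29b-1 had 0 in replicate 1, and the exact interval of their ratio starts at 10.9-fold and has no upper end. In replicate 2 the counts were 40 and 1, a ratio of 40.0 (6.78 to 1619). On chromosome 1, Mir29c stood 36.0-fold (13.8 to 134) and 130-fold (22.9 to 5174) above Mir29b-2. These are ratios of uniquely placed reads and set no value for miR-29b-3p, whose complete reads, by that inference, fall among those matching several loci. Those numbered 2202818 and 1831161, and a number equal to the Mir29c count would be 0.00654% and 0.00710% of them. How many of them were miR-29b-3p reads is not given in the tables, so the level of that strand against miR-29a-3p and miR-29c-3p was not measured.

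A chosen set of other families of the same layout shows how far such gaps vary. In 10 families, Mir29 among them, 22 genes of several loci each encode 1 mature strand shared with another gene and 1 of its own. Of those 22 genes, 20 reached 10 counts in both libraries, and the 2 that did not were Mir29b-1 and Mir29b-2. This is not particular to Mir29b, because the set leaves out other genes. In all, 51 genes encode both a shared and an unshared strand, and 35 of them were detected. Outside the 10 families, Mir135a-1 (12 and 8 counts) and Mir135a-2 (7 and 7 counts) also missed the rule. Of the 22, 3 have an older identifier version in the tables than in GENCODE M21, both Mir29b genes and 1 gene that was detected, as were 45 of the 79 genes with such a change in the whole table. The part of these versions in the Mir29b counts was not tested. The lowest of the 20 was Mir26a-1 with 27 and 28 counts, or 7.68 ± 0.205 CPM. In 8 of the 9 other families the genes of several loci summed to less than the single-locus relatives chosen. In 1, Mir25-Mir92, they summed to more (log2 ratio 3.49 ± 0.63). Not every relative was summed. Left out were, among others, Mir322 and Mir195a for Mir16, Mir363, Mir92b and Mir32 for Mir92, and Mir351 for Mir125. Mir322 alone had 44410 ± 12882 CPM, against 6090 ± 61.3 CPM for the Mir15-Mir16 family as summed. The ratios hold for the chosen relatives only.

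For Mir29 the log2 ratio of the Mir29b genes to Mir29a and Mir29c together was -5.22 in replicate 1 and -5.83 in replicate 2. It was lower for 2 of the 9 other families compared. Mir26a-1 and Mir26a-2, in introns of phosphatase genes, stood at -9.08 ± 0.21 against Mir26b, and the Mir30c genes stood at -7.96 ± 0.37 against their 4 single-locus relatives. Mir196, the Hox-cluster family, was next above Mir29 at -4.99 ± 0.11, but with a prior count of 5 this order turned (-4.98 for Mir196 and -4.53 for Mir29). The remaining 6 families lay between -3.15 and 3.49. The Mir29 ratio thus fell within the range of these 10 families. Genes of this layout outside the 10 families were not compared in this way.

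**Figure D3:**
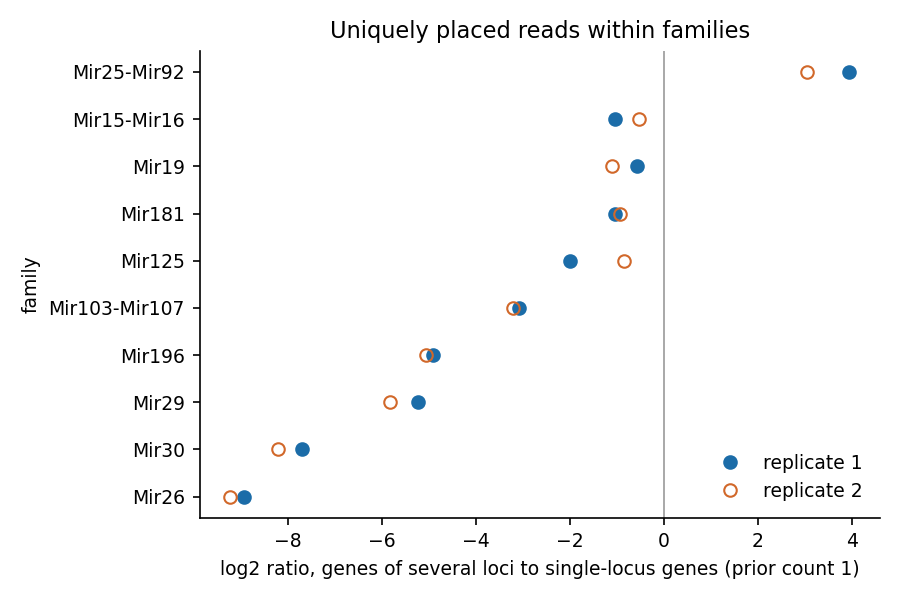
Log2 ratio (x axis, prior count 1) of summed counts, genes of several loci to chosen single-locus relatives, in 10 families (y axis, ordered by mean). Filled points are replicate 1 and open points replicate 2; Mir29 at -5.22 and -5.83 lies near Mir196 and above Mir30 and Mir26, and only Mir25-Mir92 lies above 0.

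The single-locus Mir29 genes were low beside those of the other 9 families compared. The family total of 50.6 CPM was the lowest of the 10, and the next, Mir19, had 269 ± 94.4 CPM, 5.32-fold more. Mir29a and Mir29c were the 2 lowest of the 16 single-locus genes compared in these 10 families, and all 16 were detected. The next was Mir30b at 99.5 ± 1.29 CPM. Mir30b and Mir30d were not matched to mature strands, so their place among the single-locus genes was not checked. Mir7b, outside these families, was lower than Mir29a and Mir29c at 2.93 ± 2.17 CPM. Mir26b reached 19830 ± 1552 CPM and Mir30e, a member of a family that also targets matrix-related mRNAs, 15145 ± 3152 CPM. These 10 families were picked for their layout with the counts known, and they do not hold every gene of that layout. The order is therefore a description.

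Most genes that share 1 of their mature strands were detected. Of the 916 genes that could be matched to mature strands in RefSeq, 51 encode both a shared and an unshared strand, as the Mir29b genes do, and 35 of them (68.6%) were detected. Detection was 33.3% among the 828 genes that share no strand and 16.2% among the 37 that share every strand, of which 6 reached 10 counts in both libraries. Which reads gave those counts was not tested. Genes that could not be matched to an entry by symbol, Mir30b and Mir30d among them, were left out of these shares.

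miRNA genes known to act on the same kinds of target were mostly more abundant than the Mir29 genes. Mir29c was 235th of the 348 detected genes, so most detected genes lay above it, and Mir29 was chosen for its low level. Nothing is therefore read from how many listed genes lay above it. The list of other genes known to act on DNA methyltransferases held Mir148a, Mir148b, Mir152, Mir143, Mir101a and Mir101b. All 6 were detected, against 17.6% of all genes, and all 6 lay above Mir29c. Their median was 349 CPM, against 136 CPM over the detected genes and 0 CPM over all genes. Mir143 was the highest at 4993 ± 187 CPM, and Mir148a, a regulator of Dnmt1, had 510 ± 40.4 CPM. Mir152, at 116 and 179 counts, was close to Mir29c: its mean was 41.2 ± 12.5 CPM, and it lay below Mir29c in replicate 1 and above it in replicate 2.

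On the list of miRNA genes known for matrix or fibrosis, 9 of 11 lay above Mir29c, which was 235th of the 348 detected genes. Of the 11, 10 were detected, against 17.6% of all genes, and the median was 805 CPM. Mir214 led with 18552 ± 2773 CPM, 485-fold Mir29c, and Mir21a, known for promoting fibrosis, had 3552 ± 270 CPM. The 2 below Mir29c were Mir30c-2 at 25.4 ± 13.4 CPM, which shares a mature strand with Mir30c-1, and the muscle gene Mir133b at 4.05 ± 4.15 CPM. The muscle marker Mir206 had 96 and 350 counts.

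Myc is known to repress Mir29 together with several other miRNA genes. Of 18 such genes in the tables, 14 lay above Mir29c, which was 235th of the 348 detected genes. Of the 18, 17 were detected, against 17.6% of all genes. Their median was 364 CPM, against 136 CPM over the detected genes. Their range was wide. Mir26b had 518-fold the mean of Mir29c and Mirlet7g, of the let-7 family that rises with differentiation, had 4249 ± 1427 CPM. The list did not hold every let-7 gene. Among those left out, Mirlet7f-2 lay above Mir29c at 64.4 CPM. Mirlet7c-1 (16.8 CPM), Mirlet7a-1 (16.1), Mirlet7a-2 (12.6), Mirlet7b (7.13) and Mirlet7c-2 (0.699) lay below Mir29c. Mir34a, a target of p53, was close to Mir29c with 153 and 158 counts. Mir146 (89 and 60 counts) and Mir150 (8 and 4 counts), both best known from leukocytes, lay below it, as did Mir26a-1 and Mir26a-2, which share a mature strand.

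The replicates differed little in the detected Mir29 genes. The log2 ratio of replicate 2 to replicate 1 was -0.14 for Mir29c (-0.50 to 0.21) and -0.07 for Mir29a (-0.73 to 0.59). Over the 250 genes averaging 100 counts or more, the median was -0.27 and the SD 0.66. Mir29c lay 0.13 above that median, and 15.6% of these genes had a smaller absolute ratio. Scaling by TMM moved all ratios by 0.29, and the signs turned: 0.15 for Mir29c and 0.22 for Mir29a. No direction is therefore given for either gene.

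Of the 250 genes, 1.2% were over 2-fold higher and 9.6% over 2-fold lower in replicate 2, and Mir29c, the only member with enough counts, was in neither group. Mirlet7i, a let-7 gene also on the Myc list, had a log2 ratio of 1.01, and of the cartilage genes Mir140 had 1.27 and Mir455 had -0.32. The intervals of Mir29a and Mir29c ended below the ratios of Mirlet7i and Mir140, but both held the ratio of Mir455. The plot of library ratios shows Mir29a and Mir29c near 0. The Mir29b-2 ratio of 4 counts to 1 could not be told from no difference.

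**Figure D4:**
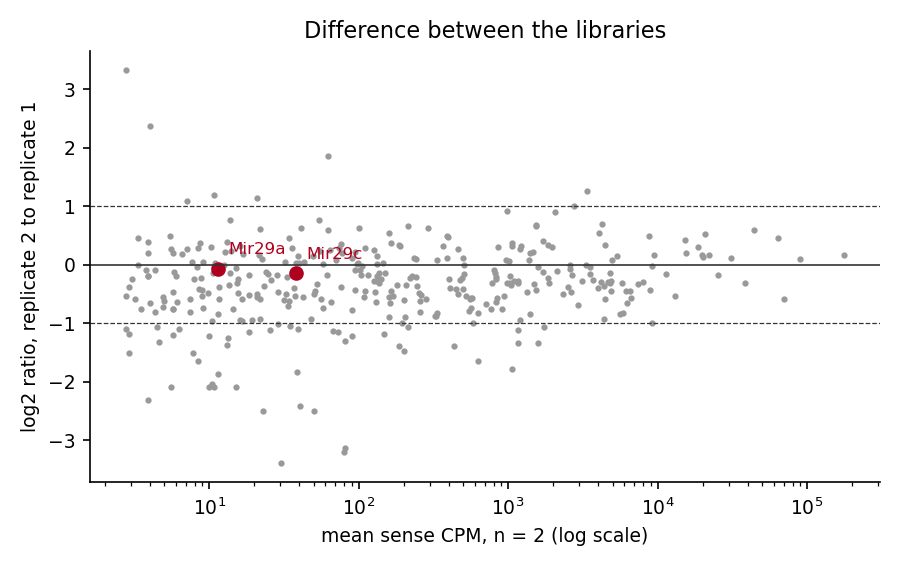
Log2 ratio of replicate 2 to replicate 1 (y axis) against mean sense CPM (log x axis) for genes averaging 10 counts or more; dashed lines mark 2-fold. Mir29a at -0.07 and Mir29c at -0.14 (red) lie near 0, inside the spread of genes of like level.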

How the data were processed

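Small-RNA libraries from 2 pools of limb tissue were used, and replicate numbers came from the labels. The authors deposited raw read counts per miRNA gene, aligned to mm10 and counted over GENCODE M4 per the deposited readme texts; no source used here names the aligner, counter or trimming. Strand columns and the handling of reads matching several loci (counted at no gene) were inferred from the values. Sense counts were scaled by their sum over genes, with edgeR 4.0.16 TMM and DESeq2 1.42.0 size factors as alternatives (R 4.3.3, Python 3.11.15, scipy 1.17.1). Of 1973 identifiers, 1894 matched GENCODE M21. Fold intervals are exact conditional binomial. No model was tested, as there is 1 group, and the labels do not say whether the pools came from separate litters. Log2 ratios between the libraries were checked on simulated counts.

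The genes named are the Mir29 genes, the 3 nearest in level to each detected member and annotated neighbours within 10 kb. Named too are the 10 families of that layout, members of the lists and cell type markers. Mir335, Mir1955, the rank neighbours, Mir135a-1, Mir135a-2 and Mir7b were chosen after their values were seen. So were the let-7 genes and family relatives named as left out. Members and lists were chosen with earlier results of these data known.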

Additional observations from a re-analysis of the deposited data

How the results depend on the processing

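No paired analysis was possible because there is a single group. Of 128 alternative values over 27 results, 113 stayed within the spread of the libraries or, for ratios between libraries, within the counting interval. For part of them this was fixed in advance. With 2 libraries, leaving out either gives a level or ratio that always lies within the SD of the mean. Counting both strands could not change ratios between Mir29 genes, since their antisense counts were 0. The 113 is therefore no measure of how stable the results are. Per 1000000 mapped reads, the levels were 21.6 for Mir29c, 6.49 for Mir29a and 28.6 for the 4 genes, and per 1000000 of all reads 16.2, 4.86 and 21.4. These scalings have larger totals by construction. A prior count of 5 gave log2 ratios of 1.62 for Mir29c to Mir29a, 2.53 and 4.16 for Mir29a and Mir29c to the Mir29b genes, and -4.53 for Mir29b to the single-locus genes. With both strands counted Mir29c ranked 244th. Detection at 100 counts left 1 gene.

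Leaving out each library in turn gave 36.3 to 40.2 CPM for Mir29c, ranks of 229 to 235 for Mir29c, 454 to 524 for Mir29b-2 and 524 to 647 for Mir29b-1. Counts under 5 limit every Mir29b value.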
